A study of Mus musculus with 20 samples.

Results

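The respiratory chain and ATP synthase genes were examined in 2 brain regions, neocortex and hippocampus, of old mice that carry an acetylation-mimic TDP-43 (KQ/KQ) or the normal protein (wt). Members were taken by symbol (Nduf with a, b, c, s or v and a digit, Sdha to Sdhd, Uqcr, Cox4 to Cox8, and Atp5), which matched 84 of the 24528 genes in the deposited table. Cox8c was at 0 in every library and was dropped, leaving 83 members, all of which passed the filter on low values. Of these, 35 belong to complex I, 4 to complex II, 8 to complex III, 19 to complex IV and 17 to complex V. Ndufa4 and Ndufa4l2 carry a complex I name and were placed in complex IV, where the Ndufa4 protein is found. By role, 73 were structural subunits (17 core and 56 accessory), 7 were tissue-restricted isoforms of complex IV, and 3 (Cox7a2l, Atp5s and Atp5sl) were associated factors. Atp5s and Atp5sl were counted in complex V by their symbols only, and RefSeq names them Dmac2l and Dmac2.

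Complexes I and II pass electrons from NADH and succinate to ubiquinone, complex III passes them to cytochrome c, and complex IV (cytochrome c oxidase) passes them to oxygen. Complexes I, III and IV pump protons out of the mitochondrial matrix, and complex V (ATP synthase) uses their return to make ATP. Most subunits are encoded in the nucleus and the remainder in mitochondrial DNA, and neurons depend on this pathway for the energy spent on ion pumping and synaptic transmission. The mitochondrially encoded subunits were not analysed here.

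KQ/KQ mice are homozygous for the acetylation-mimic K145Q substitution at the endogenous Tardbp gene, made by CRISPR editing and kept as a line from a founder, while wt mice carry the unedited gene. Mice of both sexes were taken at 18 months of age. The neocortex gave 6 KQ/KQ libraries (3 female, 3 male) and 5 wt libraries (3 female, 2 male), and the hippocampus gave 5 KQ/KQ libraries (3 female, 2 male) and 4 wt libraries (3 female, 1 male). Total RNA of bulk tissue was sequenced, so fewer cells of a type and less RNA per cell cannot be told apart. The labels name 5 litters and do not say which libraries of the different regions share a mouse, although female libraries of the same genotype and number share a litter.

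The deposited values are on a log2-like scale, with sex and litter already removed by the authors, and every gene is centred so that its KQ/KQ neocortex libraries average 0. A value is therefore a difference from that mean, and neither expression levels nor depth can be read from the table. Neocortex wt male 1 is alone in its litter, so its corrected value equals its group's fitted value and adds no information to any contrast. Tardbp was higher in KQ/KQ than in wt by 1.00 ± 0.089 in the neocortex (SE, adjusted p = 1.17e-04) and by 0.83 ± 0.095 in the hippocampus (adjusted p = 0.00163). Of 10 hippocampal marker genes, 10 in KQ/KQ and 9 in wt were higher in the hippocampus. Of 9 neocortical markers, 7 were lower there in both genotypes, while Fezf2 and Bcl11b were higher. Both libraries of wt female 2 had the highest median over the 83 genes in their region (0.20 in the hippocampus and 0.30 in the neocortex). Both libraries of KQ/KQ female 1 had the lowest (-0.14 and -0.10), and the genotype medians and the region calls are also given without these libraries.

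The structural subunits moved together from library to library. After the group means, sex and litter were taken out, the mean correlation between pairs of structural subunits over the 20 libraries was 0.798, against 0.000468 between pairs of all 17863 genes tested. It was 0.793 within complex I, 0.794 within complex II, 0.80 within complex III, 0.412 within complex IV and 0.706 within complex V. The lower figure for complex IV came with its 7 tissue-restricted isoforms, among which the mean correlation was 0.00135. Ndufs8, an iron-sulfur core subunit of complex I, varied most like the other members (r = 0.98 with their mean), followed by Ndufa4 (0.97) and Ndufb6 (0.969). Ndufa4l2 varied least like them (-0.115), followed by Cox8b (0.113), Cox7b2 (0.122) and Cox4i2 (0.149). These correlations are descriptions, since all genes of a library share its preparation and depth. Expression levels cannot be read from the table, so the part of low counts in the weak correlations of the isoforms was not tested. The mean over all genes averages positive and negative pairs, so it is no baseline for a set of related genes. Cytosolic ribosomal protein genes, another set of short and abundant messages, had a mean correlation of 0.744 among themselves. For genes of the tricarboxylic acid cycle it was 0.644, for glycolysis 0.557 and for mitochondrial ribosomal proteins 0.398.

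Upstream sequences of the members are shown because so many of them varied as 1 block while the complex IV isoforms did not. All 83 members have a place in the RefSeq annotation of GRCm38.p6, on 19 chromosomes with at most 9 on any of them, and 69 have an entry among the RefSeq start site sequences, of which the 250 bases before the start were searched on both strands. The palindrome bound by the respiratory factor NRF1, spelled in capitals in the windows below, was present in 4 of the 69 (5.8%), against 1.06% of 17492 protein-coding genes. CCGGAAG, an ETS motif that GABP binds, was present in 11 (15.9%, against 9.13%), the SP1 motif GGGCGG in 25 (36.2%, against 42.7%) and CCAAT in 31 (44.9%, against 36.3%), with 1 overlap between matches of different motifs. The windows below show the NRF1 letters in capitals, 5′ to 3′, in subunit c of the ATP synthase (Atp5g2), subunit e of the same enzyme (Atp5k), a liver-type subunit of cytochrome c oxidase (Cox6a1) and a membrane-arm subunit of complex I (Ndufa11). Of the 4 isoforms with an entry, 0 held the NRF1 letters, 0 the ETS, 2 the SP1 and 3 the CCAAT letters. Of the 62 structural subunits, 4, 11, 21 and 26 held them, in the same order. A match describes letters only, and binding was not measured. A link between these letters and the co-variation was not tested.
Atp5g2, chr15:102671055-102671114, minus strand: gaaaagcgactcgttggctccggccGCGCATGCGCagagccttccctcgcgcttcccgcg
Atp5k, chr5:108434415-108434474, minus strand: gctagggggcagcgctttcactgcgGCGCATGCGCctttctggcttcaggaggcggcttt
Cox6a1, chr5:115349086-115349145, minus strand: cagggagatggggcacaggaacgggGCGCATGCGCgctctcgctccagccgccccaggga
Ndufa11, chr17:56717677-56717736, plus strand: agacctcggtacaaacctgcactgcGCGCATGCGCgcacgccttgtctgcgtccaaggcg

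The base composition of these windows was also compared, without a test. The 62 structural subunits with an entry held a median of 14.5 CpG in 250 bases (range 4 to 35), and the 4 isoforms with an entry (Cox6b2, Cox7a1, Cox7b2 and Cox8b) a median of 6 (range 1 to 9), against a median of 10 over protein-coding genes. Capitals mark CpG in the 120 bases before the start of Ndufs8, the member that varied most like the others, and of Cox8b and Cox6b2, the isoforms that were higher in the hippocampus of KQ/KQ mice.
Ndufs8, chr19:3912775-3912894, minus strand: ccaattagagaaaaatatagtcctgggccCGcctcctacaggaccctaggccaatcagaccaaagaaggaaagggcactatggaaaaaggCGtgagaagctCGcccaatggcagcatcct
Cox8b, chr7:140900447-140900566, minus strand: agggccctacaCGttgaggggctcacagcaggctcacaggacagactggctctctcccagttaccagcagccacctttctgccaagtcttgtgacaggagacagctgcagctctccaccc
Cox6b2, chr7:4753095-4753214, minus strand: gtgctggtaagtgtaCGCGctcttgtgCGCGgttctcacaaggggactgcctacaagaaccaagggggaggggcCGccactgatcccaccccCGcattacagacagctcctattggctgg
In these 120 bases Ndufs8 held 3 CpG, Cox8b 1 and Cox6b2 6, so Ndufs8 held fewer than Cox6b2. In the 250 bases used for the medians above, Ndufs8 held 9, Cox8b 1 and Cox6b2 8, so that order depends on the window.

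In the neocortex, no respiratory chain or ATP synthase gene passed the adjusted threshold between the genotypes, and 78 of 83 had a negative difference in KQ/KQ mice. By limma with Benjamini-Hochberg adjustment over 17863 genes, 0 of the 83 members passed an adjusted p of 0.05, where 0.224% of all genes tested did (19 higher and 21 lower), and 11 members had an unadjusted p under 0.05, where 14.4% of all genes did. The log2 difference between KQ/KQ and wt was below 0 for 78 of the 83, with a median of -0.13 beside a median of -0.0017 over all genes tested, of which 9054 were below 0. Among the 73 structural subunits 72 were below 0, with a median of -0.15. The exception was Ndufv3, an accessory subunit of the NADH-oxidising module, at 0.026. Standard errors had a median of 0.0867, and the 95% intervals of 82 of the 83 members lay between -0.5 and 0.5.

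Ndufb10, an accessory subunit in the membrane arm of complex I (chr17:24722060-24724423), had the lowest p. Its corrected values in KQ/KQ neocortex had a lowest value of -0.20, a median of 0.056 and a highest of 0.14, against 0.21, 0.41, 0.23, 0.24 and 0.12 in wt. The groups overlapped, with KQ/KQ female 3 at 0.14 above wt male 2 at 0.12, and the difference was -0.24 ± 0.084 (SE, adjusted p = 0.234). Ndufa3, a further membrane-arm subunit, had a lowest value of -0.12, a median of 0.020 and a highest of 0.083 in KQ/KQ, against 0.18, 0.42, 0.28, 0.22 and 0.011 in wt, a difference of -0.22 ± 0.089 (adjusted p = 0.288). Atp5b encodes the catalytic beta subunit of ATP synthase (chr10:128083307-128090388). It had a lowest value of -0.11, a median of 0.029 and a highest of 0.077 in KQ/KQ, against 0.13, 0.29, 0.20, 0.17 and 0.061 in wt, which overlapped through wt male 2, and the difference was -0.17 ± 0.069 (adjusted p = 0.294). In all 3 genes wt female 2 had the highest value, and KQ/KQ female 1 and male 3 had the lowest pair. When the litter term was left out of the model, 4 members were called lower, among them Atp5b, Ndufa3 and Ndufb10, with 10.1% of all genes then called. The deposited values already had litter removed, and that fit does not count the degrees of freedom this used.

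**Figure D1:**
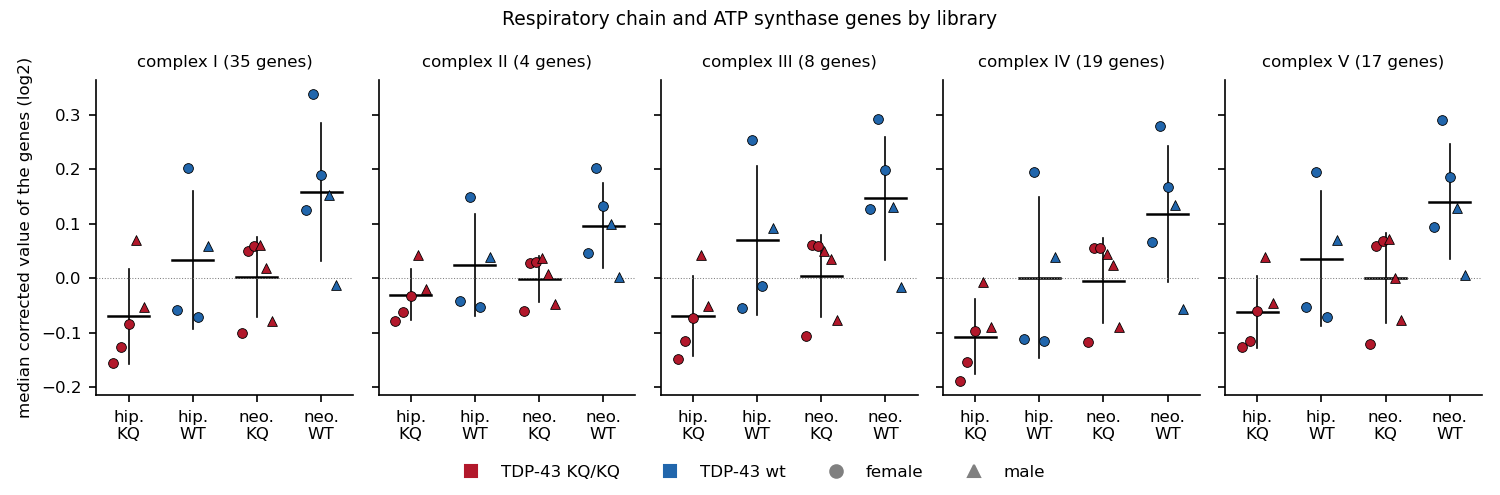
Median corrected value (log2) of the genes of each complex in each library, with points for libraries (circles female, triangles male), horizontal bars for group means and vertical bars for SD. Within each region the KQ/KQ mean lay below the wt mean in all 5 panels, and the groups overlapped in every panel.

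In the hippocampus most members also had a negative difference and none passed the adjusted threshold. Of the 83, 0 passed the threshold by limma, where 0.386% of all genes tested did (25 higher and 44 lower), and 7 had an unadjusted p under 0.05, where 14.8% of all genes did. The difference between KQ/KQ and wt was below 0 for 72 of 83, with a median of -0.097 beside -0.0010 over all genes, and for 69 of the 73 structural subunits, with a median of -0.10. The lowest p belonged to Ndufb2, an accessory subunit of the complex I membrane arm (chr6:39592565-39599843). Its values were -0.28, -0.29, -0.26, 0.012 and -0.19 in KQ/KQ hippocampus, against 0.079, 0.28, 0.094 and 0.15 in wt. Every KQ/KQ library lay below every wt library, and the difference of -0.36 ± 0.10 (SE) had an adjusted p of 0.157. Ndufb3, of the same arm, also did not overlap (-0.27, -0.049, -0.075, 0.11 and 0.074, against 0.17, 0.29, 0.12 and 0.13), with a difference of -0.22 ± 0.11 and an adjusted p of 0.353. These were the 2 members that lay wholly lower in KQ/KQ, where 5.45% of all genes tested did so, and no member lay wholly higher, where 4.19% did. Without the litter term 3 members were called lower (Atp5d, Atp5g2 and Ndufb2), with 8.87% of all genes then called.

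Atp5d, the delta subunit of the ATP synthase central stalk, had -0.20, -0.21, -0.24, -0.036 and -0.13 in KQ/KQ hippocampus, against -0.073, 0.079, -0.024 and 0.11 in wt, with a difference of -0.19 ± 0.071 (SE, adjusted p = 0.25). Atp5g2, 1 of the 3 genes for subunit c of the membrane ring and shown above with its NRF1 letters (chr15:102662868-102671047), had -0.19, -0.26, -0.18, -0.094 and -0.25, against -0.14, 0.048, -0.063 and -0.014. Its groups overlapped through KQ/KQ male 1 and wt female 1, and the difference was -0.15 ± 0.059 (adjusted p = 0.27). In the neocortex Atp5g2 differed by -0.048 ± 0.056 (adjusted p = 0.701). In that region Cox4i2 was the 1 member of 83 that lay wholly higher in KQ/KQ, where 4.29% of all genes tested did, and none lay wholly lower, where 4.34% did.

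**Figure D2:**
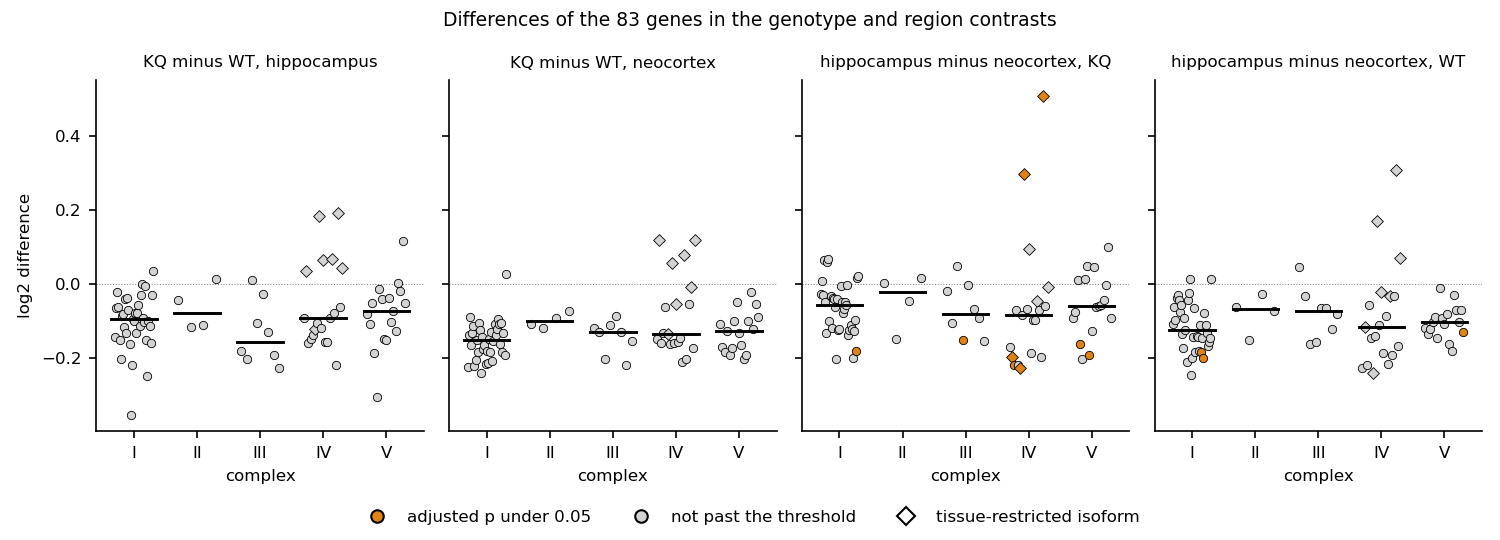
Log2 difference of each of the 83 genes in each genotype and region contrast, by complex; bars are medians of a complex, diamonds are tissue-restricted isoforms and orange marks an adjusted p under 0.05. No gene is orange in either genotype contrast, 9 are in the region contrast of KQ/KQ mice and 3 in that of wt mice.

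The median differences of the complexes were below 0 in both regions. The median differences in the neocortex were -0.15 for complex I, -0.10 for complex II, -0.13 for complex III, -0.13 for complex IV and -0.13 for complex V. In the hippocampus they were -0.097, -0.079, -0.16, -0.094 and -0.072, in the same order. Differences between complexes were not tested. In complex II all 4 genes were below 0 in the neocortex, from -0.12 to -0.074, and 3 of 4 in the hippocampus. Complex V, with Atp5s and Atp5sl counted in it by symbol, had all 17 genes below 0 in the neocortex and 15 in the hippocampus.

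The 17 core subunits had neocortex differences of -0.19 to -0.074 and hippocampus differences of -0.30 to 0.013, with 0 called by limma (4 and 1 at an unadjusted p under 0.05). The lowest of them in the hippocampus was Atp5e, the epsilon subunit of the ATP synthase central stalk, with -0.29, -0.36, -0.33, 0.17 and -0.20 in KQ/KQ, against -0.052, 0.25, 0.082 and 0.12 in wt. The genotypes overlapped through KQ/KQ male 1, and the difference was -0.30 ± 0.14 (SE, adjusted p = 0.341), beside -0.19 ± 0.14 in the neocortex. In complex I, Ndufs1, the largest iron-sulfur subunit, differed by -0.11 ± 0.058 in the neocortex and -0.0014 ± 0.062 in the hippocampus. Ndufv1, which binds NADH, differed by -0.13 ± 0.073 and -0.16 ± 0.078. In complex II, the flavoprotein Sdha differed by -0.11 ± 0.055 and -0.045 ± 0.058 and the iron-sulfur subunit Sdhb by -0.12 ± 0.073 and -0.12 ± 0.078. The Rieske protein of complex III, Uqcrfs1, differed by -0.13 ± 0.065 and -0.13 ± 0.069, and the matrix-side subunit Uqcrc1 by -0.11 ± 0.060 and -0.11 ± 0.064. These genes had adjusted p values of 0.341 or above by limma, as had Cox4i1 and Cox5a of complex IV (-0.15 ± 0.098 and -0.16 ± 0.080 in the neocortex) and Atp5a1, the alpha subunit of ATP synthase (-0.11 ± 0.065 and -0.082 ± 0.070). The 95% interval of Ndufs1 in the hippocampus was -0.13 to 0.13, and that of Sdha was -0.17 to 0.080. A log2 difference of 0.5 in either direction lay outside the 95% interval for 80 of the 83 members in the hippocampus.

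Genotype effects were not found to differ between the regions. In the contrast of the hippocampus effect against the neocortex effect, 0 of 83 members and 0 of 17863 genes passed the threshold by limma (0% called), and 0 members had an unadjusted p under 0.05, where 5.83% of all genes did. The lowest p was that of Atp5s, an associated factor of the ATP synthase, which differed by 0.11 ± 0.062 in the hippocampus and -0.055 ± 0.058 in the neocortex, a difference of 0.17 ± 0.080 between them (95% interval -0.00067 to 0.34), which did not pass the adjusted threshold. For Ndufb2 the 95% interval of the difference between regions was -0.46 to 0.10.

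The size of the genotype difference depended on which litters and libraries were compared. Within litter 6 the median difference of the members was -0.31 in the neocortex (1 KQ/KQ and 2 wt libraries, 80 of 83 lower) and -0.20 in the hippocampus (75 lower). Within litter 5 it was 0.012 in the neocortex (3 against 1 libraries, 35 lower) and -0.088 in the hippocampus (73 lower). In each region litter 5 set a KQ/KQ female and KQ/KQ males against a wt male. Within litter 4 the median difference was -0.12 in the neocortex (1 KQ/KQ male against 1 wt female, 74 lower). The other litters held 1 genotype only. In both regions litter 6 held KQ/KQ female 1, with the lowest median, and wt female 2, with the highest, beside wt female 1. The litter 6 differences and the omissions of these females below are therefore not separate observations. Without both libraries of wt female 2 the median over the members was -0.092 (neocortex) and -0.040 (hippocampus), where 52 of 83 were lower in the hippocampus. Without both libraries of KQ/KQ female 1 it was -0.055 (neocortex) and -0.0089 (hippocampus), where 50 of 83 were lower in the hippocampus, and without all 4 of these libraries -0.054 and -0.0068 (74 and 45 lower). Without these 4 the complex I median in the hippocampus was above 0, at 0.0057, and the medians of the other complexes were below 0. Of single libraries, leaving out neocortex wt male 2 gave a neocortex median of -0.24 and leaving out neocortex wt female 2 gave -0.090, while leaving out hippocampus wt female 2 gave a hippocampus median of -0.041. No member was called in either genotype contrast in any of these fits.

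Cytosolic ribosomal protein genes moved alongside. Of 88 tested, 86 were below 0 in each region, with medians of -0.17 (neocortex) and -0.16 (hippocampus) and 0 called by limma (10 and 7 at an unadjusted p under 0.05). wt female 2 again had the highest median in each region, while KQ/KQ female 1 was low without being lowest, with medians of -0.11 and -0.12 in KQ/KQ female 1, against 0.36 and 0.39 in wt female 2 (hippocampus and neocortex). Within litters the ribosomal medians were -0.35 (litter 6), -0.017 (litter 5) and -0.18 (litter 4) in the neocortex and -0.24 (litter 6) and -0.14 (litter 5) in the hippocampus, in the same order as those of the respiratory chain within each region. The part of a shift shared with ribosomal protein genes in the respiratory chain values was not tested. Markers of several cell types also had mostly negative differences, counted here by sign, with 0 called by limma. Oligodendrocyte markers were negative for 8 of 8 genes in each region (medians of -0.16 for neocortex and -0.30 for hippocampus, with 2 and 7 at an unadjusted p under 0.05), and microglia markers for 8 of 8 in each region (medians of -0.15 and -0.18, with 3 and 5 at an unadjusted p under 0.05). So were most astrocyte markers (7 of 7 and 6 of 7), parvalbumin interneuron markers (5 of 5 and 4 of 5) and neuronal markers (7 of 10 and 10 of 10), and endothelial markers in the neocortex (5 of 6, against 3 of 6 in the hippocampus). Their part was not tested either. RNA quality is not given in the labels, and the paper states only a lower bound of RNA integrity for the samples sent.

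**Figure D3:**
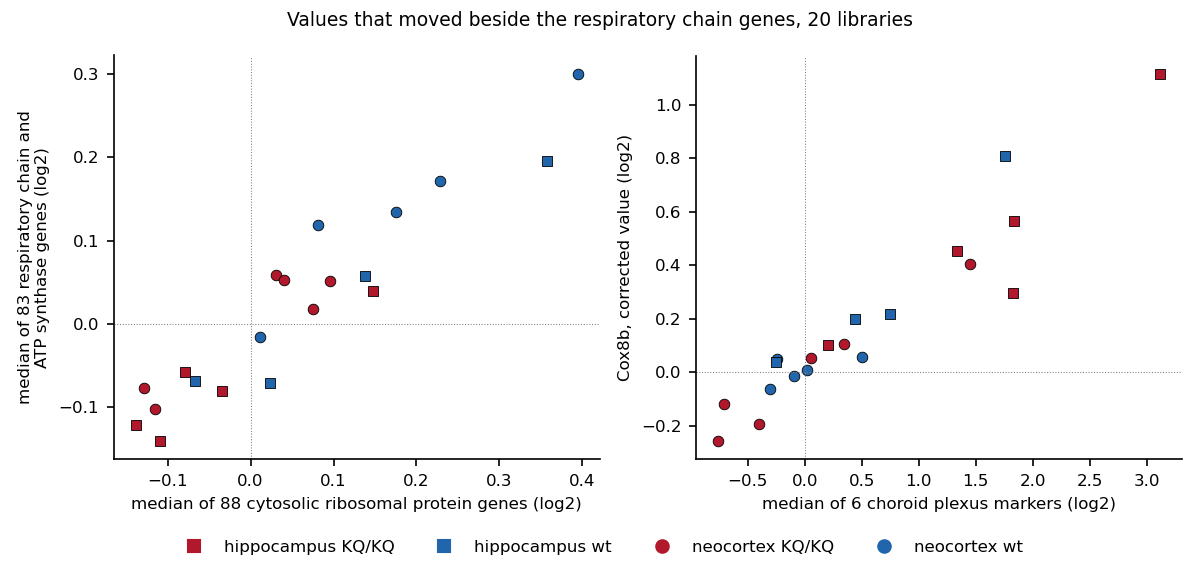
Left, the median of the 83 respiratory chain and ATP synthase genes against that of 88 cytosolic ribosomal protein genes in each of 20 libraries; right, the corrected value of Cox8b against the median of 6 choroid plexus markers (all log2). wt female 2 (0.20 in hippocampus, 0.30 in neocortex) stands at the top of the left panel, and hippocampus KQ/KQ female 1 (Cox8b 1.12) at the upper right of the right panel.

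Neighbouring pathways, listed by function, were also without called genes in the genotype contrasts. Nuclear subunits that the symbols missed (6 tested, among them Cyc1 and Ndufab1) had medians of -0.099 (neocortex) and -0.091 (hippocampus), all 6 below 0 in both. Mitochondrial ribosomal proteins (78) had medians of -0.093 and -0.070, with 75 and 64 below 0. The tricarboxylic acid cycle (18), which feeds the chain with NADH and succinate, had -0.092 and -0.040, with 18 and 15 below 0. Glycolysis (16) had -0.053 and -0.051. Assembly factors lay between -0.11 (complex III, 6) and -0.053 (complex II, 4) in the neocortex, and between -0.090 (ATP synthase, 4) and -0.045 (complex IV, 22) in the hippocampus. Regulators of mitochondrial gene expression (17) had 0.014 and 0.040, with 7 below 0 in each region. Each of these lists had 0 calls by limma in both genotype contrasts; at an unadjusted p under 0.05 stood 22 and 9 mitochondrial ribosomal proteins, 4 and 0 genes of the cycle and 2 and 2 regulators (neocortex and hippocampus).

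**Figure D4:**
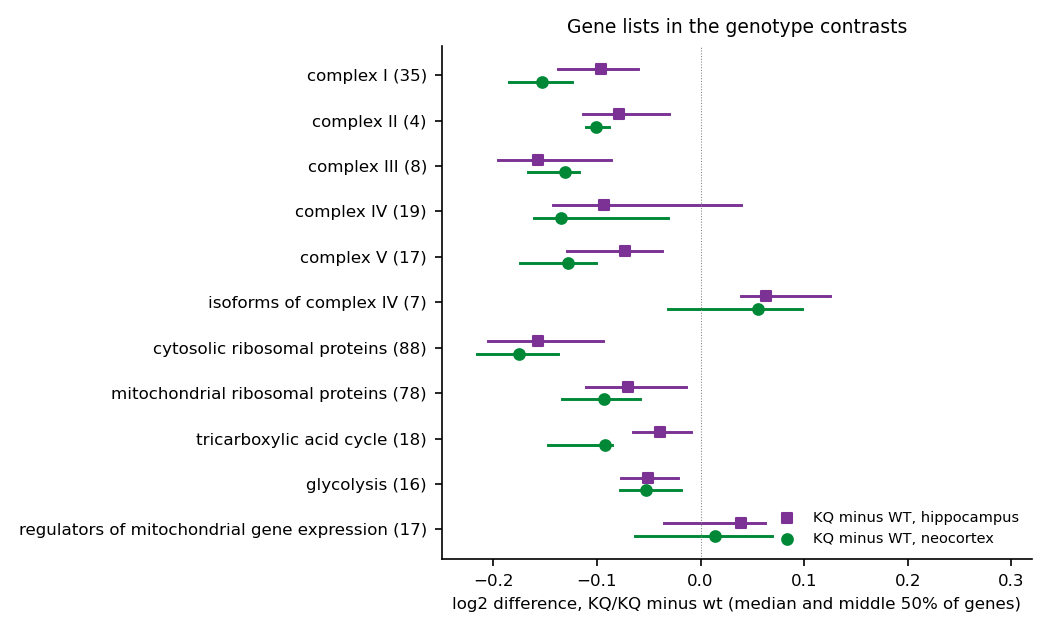
Median log2 difference between KQ/KQ and wt for each complex and for other gene lists in hippocampus (squares) and neocortex (circles), with lines over the middle 50% of genes and the number of genes in brackets. The 5 complexes and the ribosomal proteins lay below 0, and the complex IV isoforms and the regulators had medians above 0.

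The tissue-restricted isoforms of complex IV did not share the downward median of the structural subunits. Their median genotype difference was 0.056 in the neocortex (4 of 7 above 0) and 0.063 in the hippocampus (6 of 7 above 0), and none of the 7 was called (0 at an unadjusted p under 0.05 in either region). Cox4i2, an isoform used in lung and in cells of small vessels, had a lowest value of -0.081, a median of 0.0093 and a highest of 0.057 in KQ/KQ neocortex, against -0.13, -0.14, -0.11, -0.12 and -0.089 in wt. All 6 KQ/KQ libraries lay above all 5 wt libraries, and the difference was 0.12 ± 0.058 (SE, adjusted p = 0.363), while Cox4i1, its ubiquitous partner, differed by -0.15 ± 0.098. In the hippocampus Cox4i2 differed by 0.035 ± 0.062 and Cox4i1 by -0.092 ± 0.10. Of 9 pericyte and smooth muscle markers, 8 were above 0 in each region (medians 0.078 and 0.18), with 0 called by limma (2 in each at an unadjusted p under 0.05); their part in Cox4i2 was not tested. Ndufa4l2, a hypoxia-induced paralog known from pericytes, differed by 0.12 ± 0.077 and 0.043 ± 0.083 (neocortex and hippocampus), against -0.17 ± 0.12 and -0.064 ± 0.13 for Ndufa4.

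The remaining pairs followed the same division in part. Cox6b2, known as a testis isoform, differed by 0.056 ± 0.089 in the neocortex and 0.18 ± 0.096 in the hippocampus, against -0.16 ± 0.083 and -0.11 ± 0.089 for Cox6b1. Cox8b, the heart and muscle isoform of rodents, differed by -0.0091 ± 0.20 and 0.19 ± 0.22, against -0.054 ± 0.091 and -0.22 ± 0.097 for Cox8a. Cox7a1, also of heart and muscle, differed by -0.054 ± 0.073 and 0.063 ± 0.078, against -0.16 ± 0.099 and -0.16 ± 0.11 for Cox7a2. Cox6a2 was the isoform that sat below 0 in both regions, at -0.13 ± 0.095 and -0.12 ± 0.10, against -0.063 ± 0.094 and -0.14 ± 0.10 for Cox6a1. The 3 genes for subunit c, which encode the same mature protein, gave -0.10 ± 0.077, -0.048 ± 0.056 and -0.13 ± 0.089 in the neocortex and -0.041 ± 0.082, -0.15 ± 0.059 and -0.15 ± 0.095 in the hippocampus (Atp5g1, Atp5g2 and Atp5g3). Differences between partners were not tested. Library medians of 6 choroid plexus markers averaged 1.66 (SD 1.05) in KQ/KQ hippocampus, against 0.673 (SD 0.833) in wt. Their part in the hippocampus differences of Cox8b and Cox6b2 was not tested.

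Between the regions, most members were slightly lower in the hippocampus than in the neocortex of both genotypes. In KQ/KQ mice 9 of 83 members were called (2 higher and 7 lower), a share of 10.8% where 35.4% of all genes tested were called, 18 had an unadjusted p under 0.05 where 44.3% of all genes did, and 66 of 83 were below 0 with a median of -0.067. In wt mice 3 of 83 were called, all lower, a share of 3.61% where 28.2% of all genes were (13.5% higher), 11 had an unadjusted p under 0.05 where 38.8% of all genes did, and 77 of 83 were below 0 with a median of -0.11. Over all genes tested the medians were 0.013 and 0.0054 (KQ/KQ and wt). Whether a region difference is unequal between the genotypes is tested by the same contrast as the difference of genotype effects, in which no member passed. The contrasts take the libraries of the regions as independent. With female libraries of the same genotype and number joined as a replicate block, 17 members were called in KQ/KQ and 11 in wt. In that fit 39.4% and 33.7% of all genes were called (KQ/KQ and wt). The members called in wt by this limma fit included Cox5a, Uqcrc1 and Cox6a2 (adjusted p = 0.0177, 0.0239 and 0.039). The number of members called in KQ/KQ ran from 3 (without neocortex KQ/KQ female 3) to 17 (without hippocampus KQ/KQ male 1) when single libraries were left out. Without neocortex KQ/KQ female 3, 27.9% of all genes were called. In wt the number ran from 0 (without neocortex female 2 or 3, or hippocampus female 1, female 3 or male 1) to 20 (without neocortex male 2), with 17 without hippocampus female 2. The fits with 0 called 20.5% to 23.3% of all genes, and those with 20 and 17 called 26.8% and 32.9%.

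Cox5a, a matrix-side subunit of complex IV, had -0.33, -0.19, -0.29, -0.11 and -0.17 in KQ/KQ hippocampus, against a lowest value of -0.088, a median of -0.0025 and a highest of 0.086 in KQ/KQ neocortex. Every hippocampus library lay below every neocortex library, and Cox5a fell by 0.22 ± 0.072 (SE, adjusted p = 0.027). In wt it had -0.16, 0.048, -0.13 and 0.0049, against 0.23, 0.28, 0.22, 0.16 and -0.093, with overlap through neocortex wt male 2, and the difference of -0.22 ± 0.082 had an adjusted p of 0.0571. Atp5g2 had -0.19, -0.26, -0.18, -0.094 and -0.25 in KQ/KQ hippocampus, against a lowest value of -0.083, a median of 0.013 and a highest of 0.063 in the neocortex, again without overlap, and fell by 0.19 ± 0.050 (adjusted p = 0.0072). Its difference in wt was -0.092 ± 0.057 (adjusted p = 0.253). Cox4i2, Cox5a and Atp5g2 were the 3 members wholly lower in the hippocampus of KQ/KQ mice, where 15.5% of all genes tested were, and Atp5s was the 1 member wholly higher, where 12.2% were.

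Ndufv1, the NADH-binding subunit of complex I (chr19:4007499-4012755), had -0.31, -0.19, -0.18, -0.036 and -0.20 in KQ/KQ hippocampus, against a lowest value of -0.095, a median of -0.0043 and a highest of 0.092 in the neocortex, with overlap, and fell by 0.18 ± 0.066 (SE, adjusted p = 0.0423). Uqcrc1, a matrix-side subunit of complex III, fell by 0.15 ± 0.054 (adjusted p = 0.0387) and Atp5d by 0.16 ± 0.059 (adjusted p = 0.045). In wt these 3 genes differed by -0.16 ± 0.075, -0.16 ± 0.061 and -0.10 ± 0.068, with adjusted p of 0.136, 0.0668 and 0.275. Of the members called in KQ/KQ, Cox6b2, Cox4i2 and Atp5g2 were called whichever single library of the 20 was left out. Without both libraries of KQ/KQ female 1, Atp5g2, Cox4i2 and Uqcrc1 were called (adjusted p = 0.013, 0.0171 and 0.0478). In that fit the others were not: Cox5a (0.0614), Cox6b2 (0.0626), Ndufv1 (0.074), Atp5d (0.0989), Cox6a2 (0.143) and Cox8b (0.188). The calls of Cox5a, Uqcrc1, Cox8b, Ndufv1, Atp5d and Cox6a2 held in 16, 11, 10, 9, 9 and 5 of the 20 omissions. The 20 omissions are not all separate checks. Leaving out neocortex wt male 1 returned the main fit, and leaving out either library of KQ/KQ female 2 gave the same fit.

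Ndufs4 and Atp5sl were among the members called in wt mice. Ndufs4, an accessory subunit whose loss in mice causes a fatal encephalopathy, had -0.23, 0.073, -0.19 and -0.071 in the wt hippocampus, against 0.019, 0.22, 0.13, 0.096 and 0.011 in the wt neocortex. The regions overlapped through hippocampus wt female 2, and Ndufs4 fell by 0.20 ± 0.070 (SE, adjusted p = 0.0446). Atp5sl, an associated factor, had -0.034, -0.055, -0.054 and -0.021, against 0.12, 0.11, 0.093, 0.089 and 0.030, and fell by 0.13 ± 0.046 (adjusted p = 0.0451). It was the 1 member wholly lower in the hippocampus, where 16.8% of all genes tested were. Without both libraries of wt female 2, Ndufs4 was called (adjusted p = 0.0142) and Atp5sl was not (adjusted p = 0.138). With single libraries left out, the calls held in 9 (Ndufs4) and 7 (Atp5sl) of the 20 omissions of a library, which are not all separate checks.

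**Figure D5:**
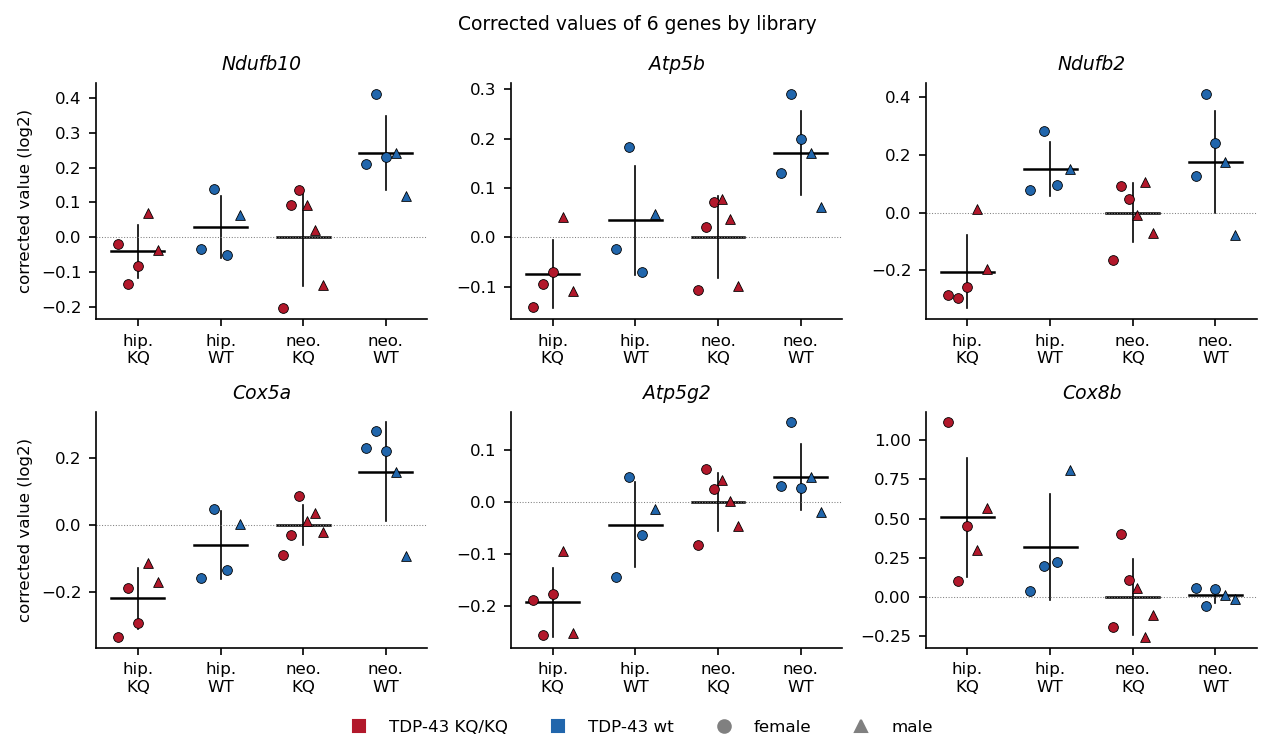
Corrected values (log2, relative to the neocortex KQ/KQ mean of each gene) of 6 genes in every library, with group means and SD. Ndufb10 and Atp5b have their highest mean in neocortex wt, Ndufb2 separates the genotypes in the hippocampus, Cox5a and Atp5g2 separate the regions in KQ/KQ, and Cox8b spreads widely in the hippocampus (0.10 to 1.12 in KQ/KQ).

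The members called higher in the hippocampus of KQ/KQ mice were both complex IV isoforms, and neither was called without both libraries of KQ/KQ female 1, whose hippocampus library had the highest value of each. Cox8b (chr7:140898942-140900446) had 1.12, 0.10, 0.45, 0.30 and 0.57 in KQ/KQ hippocampus (females 1 to 3, then males 1 and 2), against a lowest value of -0.26, a median of -0.032 and a highest of 0.40 in the neocortex, and rose by 0.51 ± 0.18 (SE, adjusted p = 0.0407), with overlap. Cox6b2 had 0.43, 0.10, 0.19, 0.40 and 0.35, against a lowest value of -0.094, a median of -0.034 and a highest of 0.19, and rose by 0.30 ± 0.080 (adjusted p = 0.00949). Without both libraries of KQ/KQ female 1 the differences were 0.29 for Cox8b and 0.24 for Cox6b2. In wt they differed by 0.31 ± 0.21 and 0.17 ± 0.091 (adjusted p = 0.292 and 0.189). Choroid plexus markers moved with them, and 5 of 6 (Folr1, Kl, Aqp1, Clic6 and Otx2) were higher in the hippocampus of KQ/KQ mice, with a median difference of 1.66, and 0 of 6 in wt by limma (1 at an unadjusted p under 0.05), with a median of 0.66. Of all genes tested, 17.2% and 13.5% were called higher (KQ/KQ and wt). The median of the 6 markers per library ranged from 0.205 to 3.12 in KQ/KQ hippocampus and from -0.252 to 1.75 in wt hippocampus, against -0.76 to 1.45 in KQ/KQ neocortex and -0.303 to 0.501 in wt neocortex. Hippocampus KQ/KQ female 1 was highest for both the markers (3.12) and Cox8b (1.12), and hippocampus wt male 1 highest in its group for both (1.75 and 0.81). Neocortex KQ/KQ female 2 was likewise highest in its group (1.45 and 0.40). The part of choroid plexus RNA in Cox8b and Cox6b2 was not tested.

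Markers of other cell types also differed between the regions beside the members, counted here by calls. Of all genes tested, 18.2% in KQ/KQ and 14.7% in wt were called lower in the hippocampus, and 17.2% and 13.5% higher. Neuronal markers were called lower in the hippocampus for 8 of 10 genes in KQ/KQ and 7 of 10 in wt, with medians of -0.34 and -0.25. Parvalbumin interneuron markers, of a fast-spiking cell type that is rich in mitochondria, were called lower for 5 of 5 in KQ/KQ and 4 of 5 in wt. Cox6a2, the muscle isoform that is found in these interneurons in mouse brain, had -0.43, -0.067, -0.22, -0.041 and -0.38 in KQ/KQ hippocampus, against a lowest value of -0.16, a median of 0.0095 and a highest of 0.16 in the neocortex. The groups overlapped, and Cox6a2 fell by 0.23 ± 0.085 (SE, adjusted p = 0.0499), with a difference of -0.24 ± 0.097 in wt (adjusted p = 0.0782). Library medians of the 5 interneuron markers were -0.437 to -0.306 in KQ/KQ hippocampus, against -0.0782 to 0.106 in KQ/KQ neocortex. Astrocyte markers were called higher in the hippocampus for 5 of 7 in both genotypes. Of 8 oligodendrocyte markers, 2 in KQ/KQ and 3 in wt were called higher, and all 8 had positive differences in both genotypes (medians of 0.12 and 0.24). Their parts in the member differences were not tested.

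Cox4i2 had -0.14, -0.21, -0.34, -0.18 and -0.12 in KQ/KQ hippocampus, against a lowest value of -0.081, a median of 0.0093 and a highest of 0.057 in the neocortex, and fell by 0.20 ± 0.052 (SE, adjusted p = 0.00823) without overlap. In wt it had -0.36, -0.13, -0.16 and -0.28, against -0.13, -0.14, -0.11, -0.12 and -0.089, a difference of -0.12 ± 0.060 (adjusted p = 0.167). Its partner Cox4i1 differed by -0.17 ± 0.088 and -0.23 ± 0.10 (KQ/KQ and wt; adjusted p = 0.15 and 0.105). Of the pericyte and smooth muscle markers, 3 of 9 (Acta2, Tagln and Myh11, all contractile) were called higher in the hippocampus of KQ/KQ mice. Of all genes tested, 17.2% were. In wt 0 were called by limma (0 at an unadjusted p under 0.05), where 13.5% of all genes were called higher. Their part in Cox4i2 was not tested.

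Female libraries with the same genotype and number were also compared between the regions. The region calls used these same libraries, so the comparison adds no separate support to them. The median of hippocampus minus neocortex over the 83 genes was -0.033, -0.16 and -0.14 in KQ/KQ females 1, 2 and 3, with 50, 81 and 67 genes lower, and -0.18, -0.11 and -0.24 in wt females 1, 2 and 3, with 81, 74 and 81 lower. Cox5a, Ndufs4, Atp5g2 and Atp5sl were lower in the hippocampus in 6 of 6 such pairs, as were many members not called, among them Ndufs8, Cox7a2 and Sdhb. Cox4i2 and Cox6a2 were lower in 5 of 6, while Cox8b was higher in 4 of 6 and Cox6b2 in 3 of 6. The libraries of KQ/KQ female 2 are the only ones of their litter, so the litter correction ties their values to each other.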

How the data were processed

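Total RNA from bulk neocortex and hippocampus of 20 libraries was sequenced. Per the labels, cutadapt, STAR 2.5.2b, Salmon, DESeq2 1.34.0, limma and the mm10 build were used upstream. The deposited table holds log2-scale values that the authors made by variance stabilisation and then corrected for sex and litter. It holds no counts, so the depth of each library and its precision cannot be given.

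Genes tied at their floor in all of at least 3 libraries of 1 region, sex and litter were dropped, which left 17863 of 24528. All 20 libraries were fitted jointly with limma 3.58.1 in R 4.3.3, with 4 groups, sex and litter as terms, because the correction had used their degrees of freedom. P-values were adjusted by Benjamini-Hochberg over all genes tested at a threshold of 0.05, and the script was tested on simulated data. Nothing in the labels says which libraries came from separate mice beyond their names, so p-values measure the spread between these libraries. Alternatives were other model terms, a replicate block, no filter, centring on the library median, a robust fit and leaving out libraries. Fits without both libraries of a female were chosen after seeing the data.

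The genes named were, by rule, in each contrast the 3 members that rose most and the 3 that fell most among those called (or the 3 of lowest p where fewer than 3 were called), 10 fixed subunits (7 core, with Uqcrc1, Cox4i1 and Cox5a accessory), the isoform pairs, and Tardbp. Ndufb3, Atp5s, Ndufv3, Atp5d and Atp5g2 between regions, and the genes named for co-variation, promoters or leave-out fits, were chosen after their values were seen. Members and lists were chosen with earlier results of these data known. The values of 1 member are not reported here. Promoter sequences and positions are from RefSeq, GRCm38.p6. Figures were drawn with matplotlib 3.10.9.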

Additional observations from a re-analysis of the deposited data

Results flagged for a closer look

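Of 128 groups of libraries checked for a single library apart from the others, 1 stood out, and chance gives about 1 in 20. Atp5a1, the alpha subunit of ATP synthase, had 0.0158 (log2) in hippocampus KQ/KQ male 1, against -0.134 to -0.0916 in the other libraries of that group.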

How the results depend on the processing

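In the genotype contrasts, 0 members were called by limma in either region when any single library was left out. With group as the only term, 8 members were called in the neocortex, 4 in the hippocampus, 20 between regions in KQ/KQ and 13 in wt. With group and sex but no litter term these counts were 4, 3, 18 and 11. Between regions, 47.3% and 42.3% of all genes were called with group alone (KQ/KQ and wt), and 45.6% and 40.1% without litter. Over all genes, 2381 and 2077 were called between genotypes with group alone and 1812 and 1584 without litter (neocortex and hippocampus), against 40 and 69 with all terms, and 7 and 0 with each region fitted alone. These fits without litter do not count the degrees of freedom used by the correction. With a replicate block joining female libraries of the same genotype and number (correlation 0.274), 17 members were called between regions in KQ/KQ and 11 in wt. That fit called 39.4% and 33.7% of all genes between regions, and 0 members in each genotype contrast. Deviations of same-numbered female libraries from their group means correlated between regions at 0.117, 0.722 and -0.43 (wt females 1 to 3). In KQ/KQ females 1 to 3 the correlations were -0.2, -1 and -0.687. Litter had already been removed from the values, which ties the libraries of a small litter to each other. These correlations therefore could not show whether the libraries share a mouse. The numbers were not taken as pairs in the main fit because the labels do not give the mouse. Without both libraries of KQ/KQ female 1, 3 members were called between regions in KQ/KQ, and 2 without those of wt female 2 as well, for which the cause was not tested.

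When single libraries were left out, members called ran from 0 to 0 in both genotype contrasts and in their difference, from 3 to 17 between regions in KQ/KQ and from 0 to 20 in wt. The member medians ran from -0.24 to -0.090 in the neocortex, from -0.14 to -0.041 in the hippocampus, from -0.10 to -0.039 between regions in KQ/KQ, from -0.18 to -0.060 in wt and from 0.0012 to 0.11 for the difference of genotype effects. The paper gives a lower bound of depth for all samples. The depth of each library is not in the table, so what it limits cannot be given.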
